A study of Homo sapiens with 6 samples.

Results

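The ABC drug efflux transporters are membrane pumps that use ATP to move drugs, drug conjugates and cell metabolites out of the cell. The 8 genes described here were ABCB1, ABCC1, ABCC2, ABCC3, ABCC4, ABCC5, ABCC10 and ABCG2. They were chosen by name, and every probe set whose only gene symbol in the platform annotation was one of them was taken, which gave 20 of 54675 probe sets. One further probe set carries a second gene symbol beside ABCB1 and was left out. RNA came from MDA-MB-231, a human line of triple-negative breast cancer cells, grown in DMEM with fetal bovine serum. One group of 3 arrays held cells given 50 µM TCI04, a compound given only under that code name, for 48 h, and the other group of 3 arrays held cells given phosphate-buffered saline (PBS) for 48 h. All 6 arrays come from the same cell line, so they stand for a single genetic background, and no label tells whether each array had a culture of its own. The p-values therefore reflect only the variation from array to array, part or all of which may be technical.

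As background, ABC proteins of this kind take up their cargo from the cytosol or the inner leaflet of the plasma membrane, and ATP bound at their nucleotide-binding domains drives it outward. ABCB1 (P-glycoprotein) and ABCG2 (breast cancer resistance protein) carry mostly hydrophobic drugs, while the ABCC pumps, the multidrug resistance-associated proteins, carry mostly organic anions such as glutathione and glucuronide conjugates. In breast cancer cells these pumps are studied because a cell that makes more of one can lower its internal dose of anthracyclines, taxanes or antifolates. Several of the genes are known targets of xenobiotic sensors, among them the aryl hydrocarbon receptor and NRF2, which bind short DNA motifs.

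The sequence table of RefSeq promoters (GRCh38.p14) held 12 transcription starts for 6 of the 8 genes. The 250 bases before a start are printed for ABCB1 and ABCC2, the genes for which no probe set reached the signal needed for testing. They are also printed for ABCC4, whose window held matches to both motifs searched, as did a window of ABCC10 that is not printed. Capitals mark matches on either strand to GCGTG, the core of the xenobiotic response element bound by the aryl hydrocarbon receptor, or to TGACNNNGC, the core of the antioxidant response element bound by NRF2. No match of one motif overlaps a match of the other in these windows.
ABCB1, chr7:87600885-87601134, minus strand: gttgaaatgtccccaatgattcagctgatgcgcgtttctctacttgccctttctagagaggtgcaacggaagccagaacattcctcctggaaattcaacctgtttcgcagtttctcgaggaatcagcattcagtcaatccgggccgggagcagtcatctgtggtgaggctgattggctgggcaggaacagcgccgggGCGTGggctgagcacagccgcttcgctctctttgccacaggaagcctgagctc
ABCC2, chr10:99782390-99782639, plus strand: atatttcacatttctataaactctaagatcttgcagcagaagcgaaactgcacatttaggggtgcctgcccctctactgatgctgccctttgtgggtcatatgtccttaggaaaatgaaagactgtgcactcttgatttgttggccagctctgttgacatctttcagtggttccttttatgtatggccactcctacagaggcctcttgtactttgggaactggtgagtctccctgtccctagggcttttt
ABCC4, chr13:95301452-95301701, minus strand: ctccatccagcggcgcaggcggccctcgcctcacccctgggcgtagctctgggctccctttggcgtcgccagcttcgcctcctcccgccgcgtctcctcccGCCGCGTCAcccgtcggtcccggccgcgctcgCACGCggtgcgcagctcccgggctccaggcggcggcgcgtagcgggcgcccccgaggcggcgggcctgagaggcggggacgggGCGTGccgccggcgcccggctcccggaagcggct
The ABCB1 window, from the second of its 2 starts in the table, had a GCGTG match beginning 53 bases before the start and a GC content of 55.6%. The window of the other ABCB1 start, not printed, had no match to either motif. The ABCC2 window had no match to either motif and a GC content of 45.6%. The ABCC4 window had GCGTG matches beginning 117 and 34 bases before the start, a TGACNNNGC match beginning at 149 bases, and a GC content of 80.4%. Over all 12 starts, 4 of the 6 genes had at least 1 window with GCGTG, which occurred in 32.2% of 35116 promoter windows of this length, and 2 of the 6, ABCC4 and ABCC10, had one with TGACNNNGC, which occurred in 10.9%. A gene with several starts has more windows that can match, so these counts of genes and shares of windows are not like for like. A match is a run of letters and shows no binding.

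No efflux transporter probe set passed the test for a difference between TCI04 and PBS. The values are linear MAS5 signals, each of which combines the probes of 1 probe set, and tests used log2(signal + 10.96). Of the 20 probe sets, 15 lay above the filter on dim probe sets (a signal of about 33.9) and were tested, for 6 of the 8 genes, and 5 lay below it. At an adjusted p under 0.05 in limma, 0 of the 15 were called, against 0.00305% of 32746 probe sets tested, which is 1 probe set, that of the early-response gene FOS. At an unadjusted p under 0.05 there was 1 of 15, for ABCC3, against 7.08% of all tested. The groups did not overlap for 2 of 15, against 13.5% of all tested: TCI04 was higher for 1, against 5.35%, and lower for 1, against 8.19%. The 15 had log2 fold changes (TCI04 minus PBS) from -0.60 to 0.74, 8 of them above 0, where 43.8% of all tested were above 0. Their median was 0.10, beside -0.03 for all tested probe sets. The ends of that range came from ABCC3 230682_x_at (lowest) and 209641_s_at (highest), both near the filter. On 230682_x_at the TCI04 mean of 32.5 was under 33.9, and on 209641_s_at PBS replicates 1 and 3, at 15.7 and 13.6, were. Each was helped past the filter by the group where it was higher, so its sign and size are descriptions only. The probe sets of a gene share their target, and these figures describe the 15 that passed the filter. A level is not compared between probe sets, since each has its own probes. In RNA from whole cultures, a smaller share of cells with a transcript and less of it per cell cannot be told apart.

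**Figure D1:**
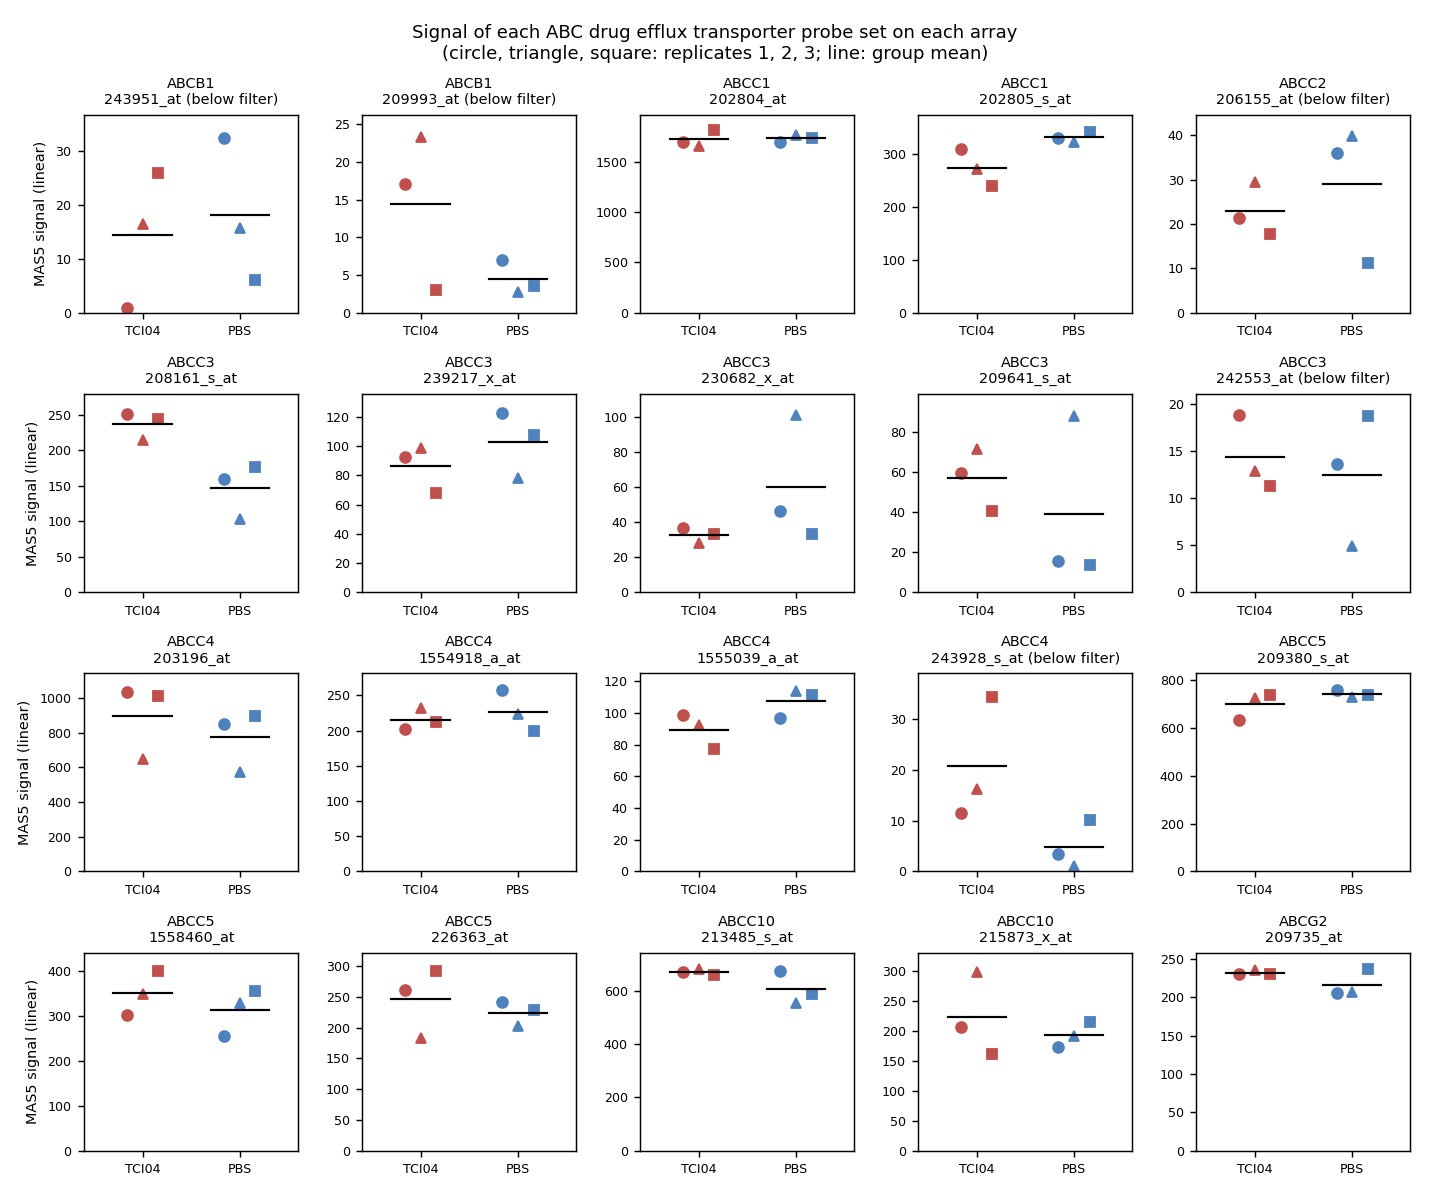
MAS5 signal (linear axis from 0) of the 20 probe sets on each array, with TCI04 left of PBS in each panel; circles, triangles and squares are replicates 1, 2 and 3, and lines are group means. The TCI04 arrays sit above the PBS arrays for ABCC3 208161_s_at (215 to 252 against 103 to 177) and below them for ABCC1 202805_s_at (239 to 309 against 321 to 341), and panels marked as below the filter hold signals of 40 or less.

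Each of the 6 arrays had been scaled to the same trimmed mean signal, 500.1, so that mean cannot tell them apart. The median signal was 58.9 to 59.8 in TCI04 arrays and 64.0 to 74.3 in PBS arrays, so the groups did not overlap. Nor did the 20th percentile, at 9.29 to 10.81 in TCI04 arrays and 11.11 to 14.23 in PBS arrays. For ACTB the ratio of 3' to 5' control signal, a measure of RNA integrity, was 1.71, 1.70 and 3.33 in TCI04 replicates 1, 2 and 3 and 1.64 to 1.72 in PBS arrays. That of GAPDH was 0.97 to 1.21 in TCI04 arrays and 0.98 to 1.07 in PBS arrays. The cell line's label was set against markers: VIM, CD44, AXL and CAV1, which mark the mesenchymal state of these cells, were all above the filter, with VIM between 26217 and 31882. Of the 9 luminal or epithelial markers, 7 were above the filter. The epithelial cadherin CDH1 (2.17 to 9.64) and the progesterone receptor PGR (14.5 to 32.5) lay below the filter, and the oestrogen receptor ESR1 measured 16.8 to 67.7. The epithelial keratins KRT18 and KRT8 measured 14639 to 17381 and 996 to 2741, the luminal factors GATA3 and FOXA1 683 to 995 and 85.6 to 138, the receptor ERBB2 400 to 525 and the adhesion molecule EPCAM 340 to 454. Of the 3 leukocyte, 3 endothelial and 3 fibroblast markers found, 1, 1 and 2 were above the filter. The endothelial markers summed to 172 to 223 in TCI04 arrays and 227 to 251 in PBS arrays. The only one of them above the filter, PECAM1, measured 141 to 191 and was not called (limma, adjusted p = 0.764). The sums of the mesenchymal, luminal or epithelial, leukocyte and fibroblast markers overlapped between the groups. The part of any marker class in any result was not tested.

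ABCC3, the multidrug resistance-associated protein that exports glucuronide and bile acid conjugates, had the smallest p of the 8 genes, and its probe sets gave different signs. On 208161_s_at, the brightest of its 5 probe sets, the signal was 252, 215 and 245 in TCI04 replicates 1, 2 and 3, against 159, 103 and 177 in PBS replicates 1, 2 and 3. All 3 TCI04 arrays were above all 3 PBS arrays, and PBS replicate 2 was the lowest. The means were 237 ± 19.5 with TCI04 and 146 ± 38.3 with PBS (SD, n = 3 arrays each), a ratio of 1.62. The log2 fold change was 0.69 (SE 0.20), and its 95% interval ran from 0.24 to 1.14 (limma, unadjusted p = 0.0065, adjusted p = 0.697). This probe set ranked 255 of 32746 by p, so the difference failed the correction. Over 16 alternative settings the log2 fold change stayed between 0.47 and 0.85, the lowest value being the one without PBS replicate 2, and the adjusted p was 0.28 to 0.812.

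The other ABCC3 probe sets were dimmer. On 209641_s_at the signal was 59.6, 71.4 and 40.4 in TCI04 arrays, against 15.7, 87.8 and 13.6 in PBS arrays, a log2 fold change of 0.74 with an interval from -0.41 to 1.88. PBS replicate 2 was here the highest of all 6 arrays, where on 208161_s_at it was the lowest, and without it the log2 fold change was 1.38. On 239217_x_at the signal was 93.0, 98.5 and 67.9 in TCI04 arrays, against 123, 78.3 and 108 in PBS arrays, a log2 fold change of -0.22 with overlapping groups. On 230682_x_at it was 36.5, 27.7 and 33.1 in TCI04 arrays, against 46.2, 101 and 33.2 in PBS arrays. The last of these had a log2 fold change of -0.60 (interval -1.46 to 0.26), and -0.22 without PBS replicate 2, the high array. Those last 2 carry the suffix _x_at, which Affymetrix gives to sets with probes that may also bind other transcripts. The probe sets with values above 0, 208161_s_at and 209641_s_at, carry _s_at, so all 4 tested probe sets of ABCC3 end in _x_at or _s_at. What else the probes of any of them bind was not tested. The fifth probe set, 242553_at, lay below the filter at 18.8, 12.9 and 11.3 in TCI04 arrays, against 13.6, 4.93 and 18.7 in PBS arrays, and its groups overlapped.

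The differences between the probe sets of a gene were tested directly as the log2 ratio of each tested probe set to the brightest one on each array, for 9 pairs in 5 genes. For ABCC3 the ratio of 239217_x_at to 208161_s_at averaged -1.36 in TCI04 arrays and -0.45 in PBS arrays (exact two-sided permutation p = 0.1, adjusted over 9 pairs 0.3). For 230682_x_at the averages were -2.52 in TCI04 arrays and -1.23 in PBS arrays, with the same exact p of 0.1 and adjusted p of 0.3. With 3 against 3 arrays no smaller p than 0.1 can occur, so the test cannot reach 0.05 for any pair. When the tested probe sets of ABCC3 were averaged, its log2 fold change was 0.15 (limma, adjusted p = 0.878). That average, and the ratio of 230682_x_at, rest in part on probe sets that their higher group helped past the filter.

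**Figure D2:**
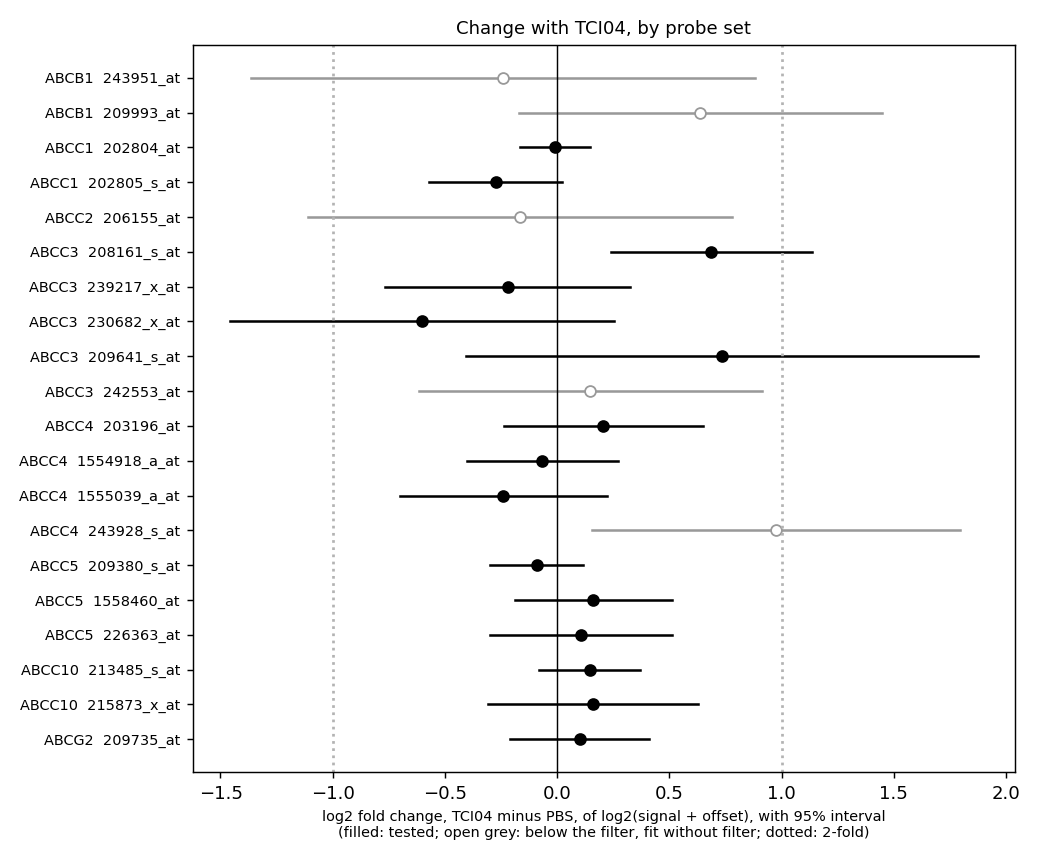
Log2 fold change (TCI04 minus PBS, x axis) of each of the 20 probe sets (y axis) with its 95% interval; filled points were tested, open grey points lie below the filter and come from the fit without it, and dotted lines mark 2-fold. Of the 15 tested intervals, only that of ABCC3 208161_s_at lies wholly on one side of 0 (0.24 to 1.14), and 12 lie within 2-fold.

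ABCC1, which exports glutathione conjugates, leukotriene C4 and anthracyclines, had the narrowest interval of the 20 probe sets. On 202804_at the signal was 1697, 1657 and 1816 in TCI04 arrays, against 1702, 1762 and 1738 in PBS arrays. The groups overlapped, and the means were 1723 ± 83.0 with TCI04 and 1734 ± 30.1 with PBS (SD, n = 3 each). The log2 fold change was -0.01 with an interval from -0.17 to 0.15 (limma, adjusted p = 0.979). That interval, 1.12-fold lower to 1.11-fold higher, holds for this probe set and the deposited scaling only. The log2 fold change was 0.15 when arrays were centred on their medians. The second probe set, 202805_s_at, gave 309, 271 and 239 in TCI04 arrays, against 330, 321 and 341 in PBS arrays. Here all 3 TCI04 arrays were below all 3 PBS arrays, and the lowest was TCI04 replicate 3, the array with the ACTB ratio of 3.33. That array was the highest of all on 202804_at, and the part of RNA integrity was not tested. The log2 fold change of 202805_s_at was -0.27, and -0.18 without TCI04 replicate 3. Its interval ran from -0.57 to 0.02, or 1.48-fold lower to 1.02-fold higher (limma, adjusted p = 0.697). The ratio of 202805_s_at to 202804_at averaged -2.62 in TCI04 arrays and -2.35 in PBS arrays on the log2 scale (exact permutation p = 0.1, adjusted 0.3).

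ABCC4, an exporter of cyclic nucleotides, prostaglandins and nucleoside analogues, had 3 tested probe sets, and for each of them the groups overlapped. On 203196_at the signal was 1035, 647 and 1014 in TCI04 arrays, against 852, 575 and 898 in PBS arrays. The array numbered 2 was the lowest in each group, and the spread within a group was larger than the difference between the means of 898 ± 218 with TCI04 and 775 ± 175 with PBS. The log2 fold change was 0.21 (interval -0.24 to 0.65, adjusted p = 0.812), and it ranged from 0.01 without PBS replicate 2 to 0.42 without TCI04 replicate 2. Each TCI04 array was above the PBS array of the same number, though no label says that these belong together. In a fit with the replicate number as a block, the limma adjusted p of 203196_at was 0.569. On 1554918_a_at the signal was 202, 232 and 212 in TCI04 arrays, against 257, 224 and 199 in PBS arrays, a log2 fold change of -0.07 that turned to 0.09 with median centring. On 1555039_a_at it was 98.4, 92.6 and 77.4 in TCI04 arrays, against 96.8, 114 and 111 in PBS arrays, a log2 fold change of -0.24 (interval -0.70 to 0.22). The suffix _a_at marks probe sets that match several transcripts of the same gene.

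The fourth ABCC4 probe set, 243928_s_at, lay below the filter. Its signal was 11.5, 16.3 and 34.5 in TCI04 arrays, against 3.41, 1.11 and 10.1 in PBS arrays, so the groups did not overlap, as was the case with TCI04 higher for 4.33% of 54613 probe sets in the fit without a filter. In that fit its log2 fold change was 0.98 (interval 0.16 to 1.79, unadjusted p = 0.0244, adjusted p = 0.75). It is the only one of the 5 dim probe sets with an unadjusted p under 0.05, where 6.65% of the 54613 had one, and the size of the change depended on the offset, being 2.07 with an offset of 1 and 0.29 with an offset of 63.6.

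ABCC5, which exports cyclic GMP and nucleotide analogues, overlapped between groups on all 3 of its probe sets. On 209380_s_at the signal was 634, 724 and 735 in TCI04 arrays, against 760, 729 and 738 in PBS arrays, with TCI04 replicate 1 the lowest. The means were 698 ± 55.5 with TCI04 and 742 ± 15.8 with PBS, a log2 fold change of -0.09 (interval -0.30 to 0.12, adjusted p = 0.823) that turned to 0.07 with median centring. On 1558460_at it was 302, 348 and 400 in TCI04 arrays, against 255, 329 and 355 in PBS arrays, a log2 fold change of 0.16. On 226363_at it was 262, 183 and 292 in TCI04 arrays, against 242, 203 and 228 in PBS arrays, a log2 fold change of 0.11 that turned to -0.03 without TCI04 replicate 3. The intervals of all 3 lay within 1.5-fold in each direction.

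ABCC10, a pump of taxanes and oestrogen glucuronide, had 2 tested probe sets. On 213485_s_at the signal was 669, 680 and 659 in TCI04 arrays, against 675, 555 and 589 in PBS arrays. PBS replicate 1 lay among the TCI04 arrays, the other 2 PBS arrays lay below them, and the log2 fold change was 0.14 (interval -0.08 to 0.37, adjusted p = 0.746). On 215873_x_at it was 207, 299 and 162 in TCI04 arrays, against 173, 191 and 215 in PBS arrays, a log2 fold change of 0.16 that turned to -0.07 without TCI04 replicate 2, the highest array.

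ABCG2, the breast cancer resistance protein, which exports mitoxantrone, topotecan and urate, was measured by 1 probe set. On 209735_at the signal was 230, 235 and 230 in TCI04 arrays, against 205, 206 and 237 in PBS arrays. PBS replicate 3 lay above all TCI04 arrays, so the groups overlapped. The means were 232 ± 2.87 with TCI04 and 216 ± 18.0 with PBS, a log2 fold change of 0.10 with an interval from -0.21 to 0.41, or 1.15-fold lower to 1.33-fold higher (adjusted p = 0.873).

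ABCB1 and ABCC2 were not measured well enough to test. P-glycoprotein, the product of ABCB1, is the pump first tied to multidrug resistance. Its probe set 209993_at gave 17.1, 23.3 and 3.01 in TCI04 arrays, against 7.01, 2.77 and 3.48 in PBS arrays, with TCI04 replicate 3 inside the PBS range. The other, 243951_at, gave 0.86, 16.5 and 26.0 in TCI04 arrays, against 32.5, 15.8 and 6.07 in PBS arrays, with no order between the groups. In the fit without a filter their log2 fold changes were 0.64 (interval -0.17 to 1.45) and -0.24 (interval -1.37 to 0.88). ABCC2, an exporter of bilirubin glucuronide at the bile canaliculus of hepatocytes, gave 21.4, 29.4 and 17.8 on 206155_at in TCI04 arrays, against 36.0, 39.9 and 11.2 in PBS arrays, a log2 fold change of -0.17 (interval -1.11 to 0.78) that was 0.01 after quantile normalization. Detection calls were not used here, so whether these dim signals differ from background is not known. The filter on signal had its nearest probe sets on the tested side in ABCC3 230682_x_at and 209641_s_at, with means over all arrays of 46.3 and 48.1, and on the other side in ABCC2 206155_at, with 26.0.

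The precision differed among the 15 tested probe sets. The coefficient of variation between arrays of a group was 1.2% to 31.3% with TCI04 and 1.7% to 108.2% with PBS, the last value being that of ABCC3 209641_s_at. The 95% interval lay within 2-fold for 12 of 15, as for 82.3% of all tested probe sets, and within 1.5-fold for 8 of 15, as for 54.9%. The 3 tested probe sets whose intervals reached beyond 2-fold were all of ABCC3, namely 208161_s_at, 209641_s_at and 230682_x_at.

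**Figure D3:**
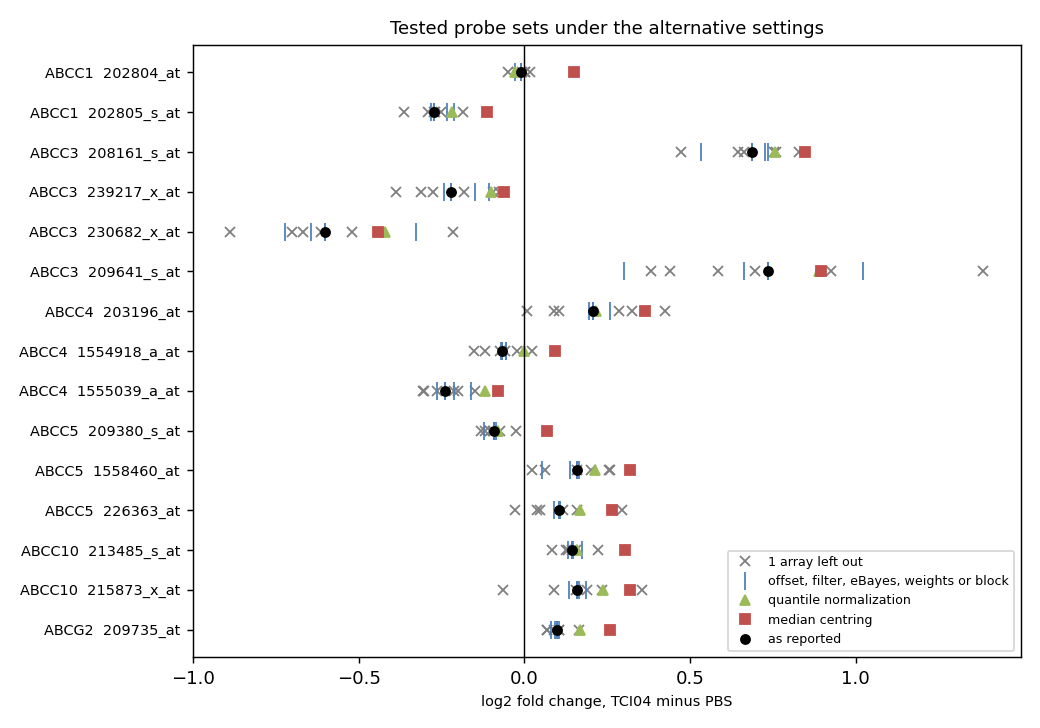
Log2 fold change (x axis) of the 15 tested probe sets (y axis) as reported (black circle) and under the alternative settings (grey crosses, 1 array left out; blue ticks, offset, filter, eBayes, weights or block; green triangles, quantile normalization; red squares, median centring). Centring on medians gave higher values than reported for all 15, with 11 instead of 8 above 0, and ABCC3 208161_s_at stayed between 0.47 and 0.85.

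Centring each array on its median moved all probe sets upward together. The median log2 fold change of all tested probe sets was 0.13 under that scaling, beside -0.03 as reported and 0.01 after quantile normalization. Under it 11 of the 15 were above 0, as against 8 as reported and 8 after quantile normalization. No member was called under any of the 3 scalings.

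The transporters' relatives and the genes that act with them were counted in 7 companion lists, each gene by its brightest probe set. Of 80 tested genes in these lists, 0 passed at an adjusted p under 0.05, against 0.00731% of 13679 genes, and the smallest adjusted p was 0.697. At an unadjusted p under 0.05 there were 7 of 80, against 7% of all genes, and the groups did not overlap for 10 of 80, against 13.5%. The values below failed the correction and are descriptions. By brightest probe set the 6 tested efflux transporter genes had a median log2 fold change of 0.12, with 4 above 0 and 2 below, beside -0.003 for all genes, where 49.3% were above 0. These counts moved with the scaling of the arrays: with median centring 6 of the 6 were above 0 (median 0.28), as were 10655 of all 13679 genes (median 0.16), and after quantile normalization 4 of 6 (median 0.16) and 7513 of 13679 (median 0.02).

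Among other plasma membrane and lipid ABC transporters, 8 of 25 listed genes were tested, 4 with a log2 fold change above 0 and 4 below, with a median of -0.001, and 5 were above 0 with median centring and after quantile normalization. ABCA5, a lipid transporter of lysosomes, had a log2 fold change of 0.30, while its other probe set gave -0.18. ABCA7, a phospholipid transporter, measured 193 ± 22.6 with TCI04 and 247 ± 15.2 with PBS, a log2 fold change of -0.34 with groups that did not overlap (unadjusted p = 0.0438, adjusted p = 0.697). ABCA2, an endolysosomal lipid transporter, had -0.22.

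Among transporters of mitochondria, endoplasmic reticulum, lysosomes and peroxisomes, 8 of 11 were tested, 6 above 0, with a median of 0.07, and 7 were above 0 with median centring and after quantile normalization. ABCB10, of the inner mitochondrial membrane, measured 1736, 1740 and 1946 in TCI04 arrays, against 1556, 1473 and 1477 in PBS arrays. The groups did not overlap, and its log2 fold change was 0.26 (unadjusted p = 0.00543, adjusted p = 0.697). The peroxisomal ABCD3 had 0.09, with -0.09 on its other probe set. The peptide transporter TAP2 had 0.07, with -0.17, -0.45 and 0.15 on its other probe sets. The porphyrin transporter ABCB6 had -0.18.

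All 4 soluble ABC proteins were tested, and all 4 had a log2 fold change below 0, with a median of -0.07. After quantile normalization all 4 were below 0 too (median -0.05), but with median centring only 1 of 4 was (median 0.09). ABCF2 measured 995, 1024 and 618 in TCI04 arrays, against 1082, 1259 and 1231 in PBS arrays, and was lowest in TCI04 replicate 3, the array with the ACTB ratio of 3.33. The part of RNA integrity was not tested. The log2 fold change of ABCF2 was -0.47 (limma, unadjusted p = 0.0187, adjusted p = 0.697), and its other probe sets gave -0.70, 0.02 and -0.10. The ribosome recycling factor ABCE1 had -0.01 and ABCF1, which acts in translation initiation, -0.03, and these became 0.15 and 0.13 with median centring.

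Of the transcriptional regulators of efflux transporters, 19 of 23 were tested, 10 above 0, with a median of 0.002, but 19 of 19 were above 0 with median centring (median 0.16) and 13 of 19 after quantile normalization (0.01). AHR, the aryl hydrocarbon receptor, measured 1077, 1065 and 1103 in TCI04 arrays, against 990, 820 and 875 in PBS arrays, with no overlap. Its log2 fold change was 0.27 (unadjusted p = 0.0121, adjusted p = 0.697). YBX1, a factor known to bind the ABCB1 promoter, had -0.04, HIF1A, the hypoxia factor, -0.02, and CTNNB1, beta-catenin, -0.07. All 3 turned above 0 with median centring, at 0.12, 0.14 and 0.09, and after quantile normalization YBX1 and HIF1A did so too, at 0.01 and 0.03. As reported, other probe sets gave -0.18 for YBX1 and -0.00 and 0.05 for CTNNB1.

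Of the genes of glutathione synthesis and conjugation, which supply cargo to ABCC pumps, 19 of 19 were tested, 9 above 0, with a median of -0.003, but 17 were above 0 with median centring (median 0.16) and 12 after quantile normalization (0.03). GCLM, the modifier subunit of glutamate-cysteine ligase, measured 5616 ± 363 with TCI04 and 5181 ± 23.7 with PBS, a log2 fold change of 0.11 with groups that did not overlap (adjusted p = 0.705). The other probe sets of GCLM gave 0.19 and -0.04. SLC7A11, the cystine carrier, had 0.09, with -0.16 and 0.05 on its other probe sets. GSTM2 had -0.25, GSTO1 -0.003 and MGST1 -0.04, of which GSTO1 and MGST1 became 0.16 and 0.12 with median centring and GSTO1 0.03 after quantile normalization. As reported, other probe sets gave -0.01 for GSTO1 and 0.06, -0.00 and 0.26 for MGST1.

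Of membrane anchors and kinases, 8 of 13 listed symbols were tested, 3 above 0, with a median of -0.03, but 7 were above 0 with median centring (median 0.13) and 4 after quantile normalization (0.001). The caveolar proteins CAV1 and CAVIN1 had -0.03 and -0.15, the actin linker MSN -0.02, the scaffold NHERF1 0.12 and the vault protein MVP -0.40. With median centring CAV1, CAVIN1 and MSN became 0.13, 0.01 and 0.14, and after quantile normalization CAV1 and MSN became 0.04 and 0.004. Of the SLC carriers of drug uptake and exchange, 14 of 20 were tested, 6 above 0, with a median of -0.06, but 11 were above 0 with median centring (median 0.10) and 8 after quantile normalization (0.01). SLC31A1, the copper carrier that also takes up cisplatin, measured 1428 ± 182 with TCI04 and 1209 ± 38.2 with PBS, a log2 fold change of 0.23 with groups that did not overlap (unadjusted p = 0.0356). SLC28A3, a nucleoside carrier, measured 50.6 ± 4.83 with TCI04 and 82.2 ± 3.24 with PBS, a log2 fold change of -0.60 with groups that did not overlap (unadjusted p = 0.0328). Both had an adjusted p of 0.697. The other probe sets of SLC31A1 gave -0.01 and 0.34. SLCO1B3, an organic anion carrier, had 0.15. The carnitine carrier SLC22A5 had 0.08, with -0.25 on its other probe set.

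**Figure D4:**
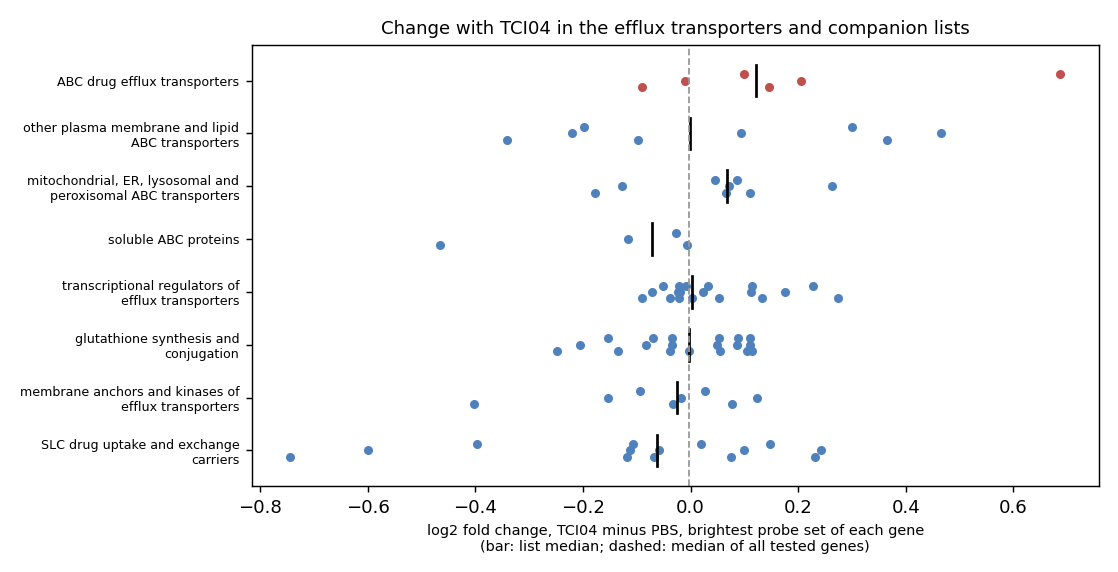
Log2 fold change (TCI04 minus PBS, x axis) of each tested gene, by its brightest probe set, for the efflux transporters (red, top) and the 7 companion lists (blue); black bars are list medians and the dashed line is the median of all genes. ABCC3 (0.69) stands to the right of the other 5 efflux transporter genes, which lie between -0.09 and 0.21, and no gene shown passed the test.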

How the data were processed

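RNA of MDA-MB-231 cells was measured on 3 TCI04 and 3 PBS Affymetrix arrays. The deposited table holds a linear intensity for every probe set on every array, made by the authors with MAS5, per the submitters' processing notes. The trimmed mean was equal on all arrays, so each array had been scaled to it before deposit. The version of MAS5 is not given in the sources used here. How many arrays there were limits the precision.

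Left out were 62 control probe sets and those with a mean log2(signal + 10.96) under the 40th percentile, so that 32746 were tested. The offset of 10.96 is the 20th percentile of the table. Fold changes on this scale understate the change of dim probe sets. With R 4.3.3, limma 3.58.1 (eBayes with trend, two-sided, 10.5 total degrees of freedom) was fitted to all of them with Benjamini-Hochberg adjustment at 0.05. Of the probe sets, 41097 had 1 gene symbol, 1801 several and 11777 none. A gene's brightest probe set is the one with the highest mean log2 value. The steps were tested on simulated data.

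Every probe set of the 8 genes is named; each companion list gives its 3 brightest genes and the gene with the smallest p in each direction, and any passing gene. Members, lists and tests were chosen with earlier results of these data known. No label says that same-numbered arrays of the 2 groups belong together, so they were not treated as pairs. Their deviations from their group means correlated at 0.004, 0.062 and 0.05. For differently numbered arrays of the 2 groups the correlations were -0.061 to 0.009. Alternatives were 2 scalings, 2 offsets, 2 filters, 2 eBayes settings, array weights, a replicate block, each array left out, and 2 choices of probe sets per gene.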

Additional observations from a re-analysis of the deposited data

How the results depend on the processing

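The number of efflux transporter probe sets called was 0 in the reported fit and in all 16 alternatives, the number of efflux transporter genes called was 0 in the 4 alternatives run for genes, and the number of companion list genes called was 0 in both scalings and with each array left out. Over all probe sets the count of 1 went to 0 with median centring and with eBayes without trend, and was 0 to 1 with single arrays left out. With the replicate block, the replicate number taken from the titles, it was 1, and ABCC3 208161_s_at had an adjusted p of 0.457; the block changed no call. The count of tested members with groups that did not overlap was 2 in the reported fit and 4 to 5 with any 1 array left out. In those fits 3 arrays face 2, so the groups of any probe set separate more easily. The count at an unadjusted p under 0.05 was 1 to 2 over the 16 alternatives. Shares of all tested probe sets were not taken with an array left out, so neither count is a result about the transporters.

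The signs that turned all belong to values that failed the correction, and the cause was not tested. With median centring ABCC1 202804_at gave 0.15, ABCC4 1554918_a_at 0.093 and ABCC5 209380_s_at 0.069, and ABCC1 and ABCC5 taken by their brightest probe set gave the same 0.15 and 0.069. After quantile normalization ABCC2 206155_at gave 0.006. By gene, ABCC5 gave 0.16 without probe sets ending in _x_at or _s_at and 0.058 as the mean of its tested probe sets, and ABCC4 gave -0.033 as that mean. ABCC3 and ABCC10 had no tested probe set left without those endings, so that alternative does not cover them. With single arrays left out the log2 fold change ranged from -0.588 to 0.234 for ABCB1 243951_at, -0.048 to 0.018 for ABCC1 202804_at, -0.546 to 0.053 for ABCC2 206155_at, -0.106 to 0.343 for ABCC3 242553_at, -0.152 to 0.024 for ABCC4 1554918_a_at, -0.027 to 0.294 for ABCC5 226363_at and -0.065 to 0.355 for ABCC10 215873_x_at. For the other probe sets the sign was the same in every alternative run.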
